A study of Equus caballus with 2 samples.

Results

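The genes described here carry newly made secretory proteins into the endoplasmic reticulum (ER) and on to the Golgi apparatus. They were taken by symbol (the SEC genes with a number, other than the SEC14L genes, SSR1 to SSR4, SAR1A, SAR1B, and the TMED, TRAPPC, COP and KDELR genes), which gave 63 of the 21426 genes listed in both libraries. *MIA3* was also sought, but no listed gene carries that symbol. Cultured fibroblasts from the endometrium, the lining of the uterus, of 4 mares were seeded at passage 3 on hydrogels coated with rat tail collagen and first kept in medium with serum, which was lowered stepwise. For the last 24 h, the treatment phase, 0.1% BSA replaced the serum. The control cells received nothing else in this phase, and the TGF-β1 cells received 10 ng/ml human recombinant TGF-β1, a growth factor known for driving fibrosis. Cells of the 4 mares were pooled before loading, and each pool gave 1 droplet library counted in unique molecular identifiers (UMIs), which mark single captured transcripts. The cells treated with MFGE8 were not analysed here.

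With 1 library per treatment there was no replicate, so differences were described and not tested. Treatment and library preparation cannot be told apart. The study separated the mares by genotypes in the reads, which was not repeated here, so the mix of mares in each pool is also not accounted for. The limits of the study's methods (20000 UMIs, 3500 genes and less than 4% mitochondrial UMIs) left 3865 control cells with 210497250 UMIs and 4513 TGF-β1 cells with 219731144 UMIs. UMIs were summed over these cells and scaled to counts per 1000000 UMIs (CPM), and differences are log2 ratios of TGF-β1 over control with exact 95% binomial intervals (Clopper-Pearson), which cover counting error only. A level in CPM depends on how well the 3′ end of each transcript is captured, so levels are compared between libraries and not between genes. The fibroblast markers *COL1A1*, *COL1A2*, *COL3A1* and *VIM* were found in every kept cell of both libraries. Their levels differed between the libraries in both directions, with log2 ratios of -0.97 for *VIM*, -0.71 for *PDGFRB*, -0.23 for *DCN*, 0.03 for *LUM*, 0.19 for *COL1A1*, 0.26 for *COL1A2* and 0.33 for *COL3A1*. Of the markers of other cell types, *EPCAM*, *CDH1*, *PECAM1*, *CDH5*, *PTPRC* and *CD3E* had between 0 and 9 UMIs per library, *VWF* had 99 and 45, and *MUC1* had 140 and 117. The immune marker *CD14* had 14.0 CPM in control and 9.75 CPM in TGF-β1 cells, and *KRT8*, a keratin listed among the epithelial markers, had 114 and 4.48 CPM. The 7 cycling markers found were lower with TGF-β1, by log2 ratios from -0.57 to -1.36. The kept cells had a median of 50313 UMIs in control and 43142 in TGF-β1. The share of UMIs on ribosomal protein genes was 16.9% and 14.9%, and that on mitochondrial genes was 1.52% and 1.27%. The part of these library differences in the results was not tested, but values at equal depth and within clusters of like cells are given below.

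A secreted protein such as a collagen chain enters the ER through the SEC61 channel, where the signal peptidase removes its signal peptide. It leaves in vesicles coated with COPII, which bud at ER exit sites, and p24 proteins help to select cargo. TRAPP complexes and SEC22 SNAREs serve the docking and fusion of these vesicles, the COPI coat returns material from the Golgi to the ER, and KDEL receptors bring back escaped ER chaperones. Fibroblasts are cells with heavy secretory traffic, since they produce most of the extracellular matrix.

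The transport genes together took up 1.02% of all control UMIs and 1.24% of all TGF-β1 UMIs. Their summed level was 10248 CPM in control and 12373 CPM in TGF-β1, a 1.21-fold difference. The gain was spread unevenly over the steps of the route. It was largest for the KDEL receptors, of similar size for the translocon, the p24 proteins and the COPI coat, smaller for the COPII coat as counted, and close to 0 for the TRAPP and SEC22 genes. The place of COPII rests on *SEC31B*: without this gene, whose counts are in doubt as set out with the COPII genes, its log2 ratio was 0.26, beside 0.25 for COPI. The value near 0 pools unlike parts, with log2 ratios of 0.23 for the SEC22 genes and -0.04 for the TRAPP genes. It also leans on *TRAPPC5*, without which that group had a log2 ratio of 0.12.

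Of the 63 genes, 53 averaged 10 CPM or more across both libraries, 8 lay between 1 and 10 CPM and 2 lay under 1 CPM. Among the 53, 44 were higher and 9 were lower with TGF-β1, while 51.4% of all 7658 genes at this level were higher and 48.6% lower. The counting interval lay above 0 for 42 of the 53 and below 0 for 7, beside 44.5% and 42.1% of all genes. The median log2 ratio was 0.23, compared with 0.01 for all 7658 genes, whose middle range ran from -0.19 to 0.20. More than 1.2-fold higher were 22 of the 53 genes (41.5%), while 19.3% of all 7658 genes passed this size. Only *TRAPPC5* was more than 1.2-fold lower (1.89% of the 53), beside 18.8% of all genes. At 1.5-fold, *SEC23A* was the only gene higher, beside 6.19% of all genes, and none was lower, beside 6.48%. The changes of the 53 genes were thus small in size, and most pointed the same way. The counts depend on where the limits lie. *SEC24A* stood just inside the 1.2-fold limit with a log2 ratio of 0.27 and *KDELR1* just outside with 0.25. The limit of 10 CPM left out *TRAPPC1*, which averaged 9.36 CPM and was 1.71-fold lower. It also left out *SEC16B*, which averaged 2.35 CPM and was 2.31-fold higher. Among the better measured genes, with at least 100 CPM, 16 of 31 (51.6%) were more than 1.2-fold higher, beside 24.1% of all genes at that level, and 1 (3.23%) was lower, beside 17.3%.

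**Figure D1:**
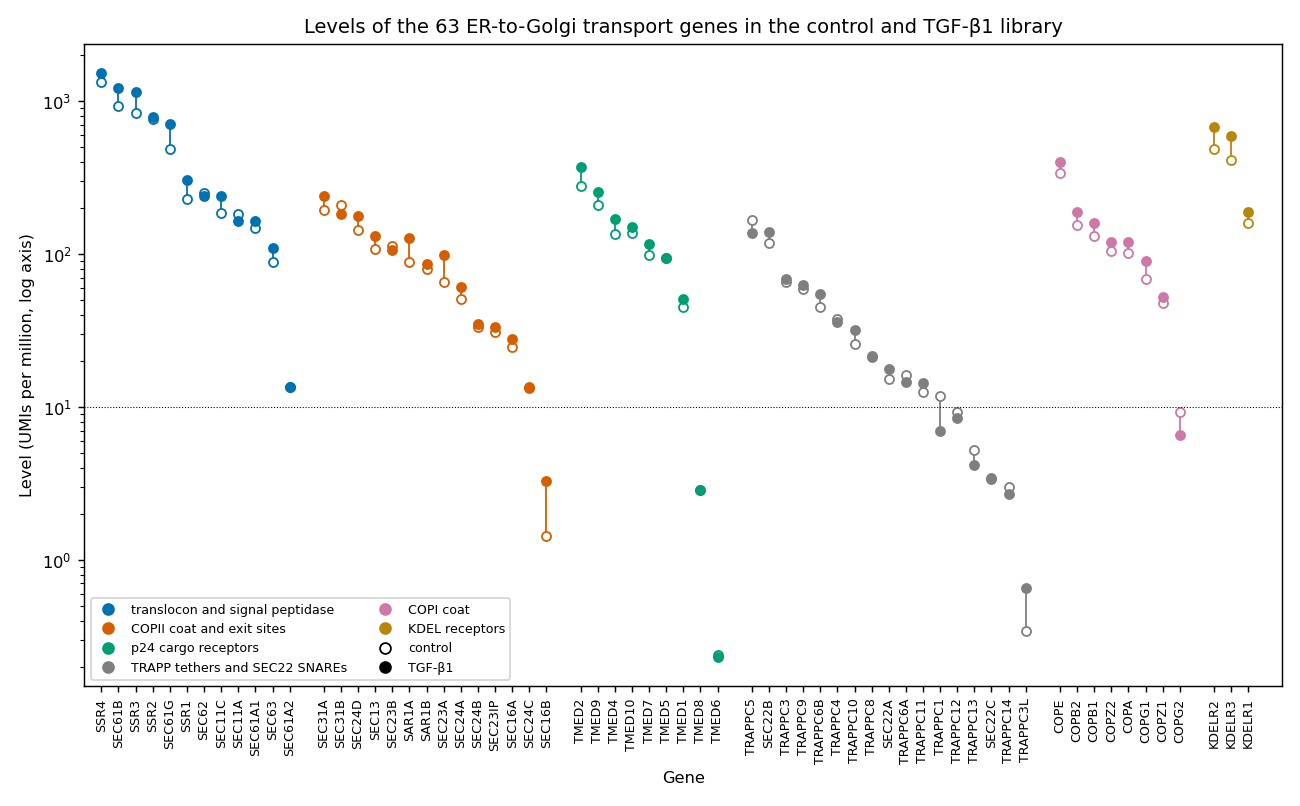
Level of each of the 63 genes in CPM (log axis) in the control library (open circles) and the TGF-β1 library (filled circles), grouped by role, with 1 library per treatment and the dotted line at 10 CPM. The filled circles lie above the open ones for 44 of the 53 genes over the line, beside 51.4% of all genes at this level, and the widest gaps are among the low genes.

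**Figure D2:**
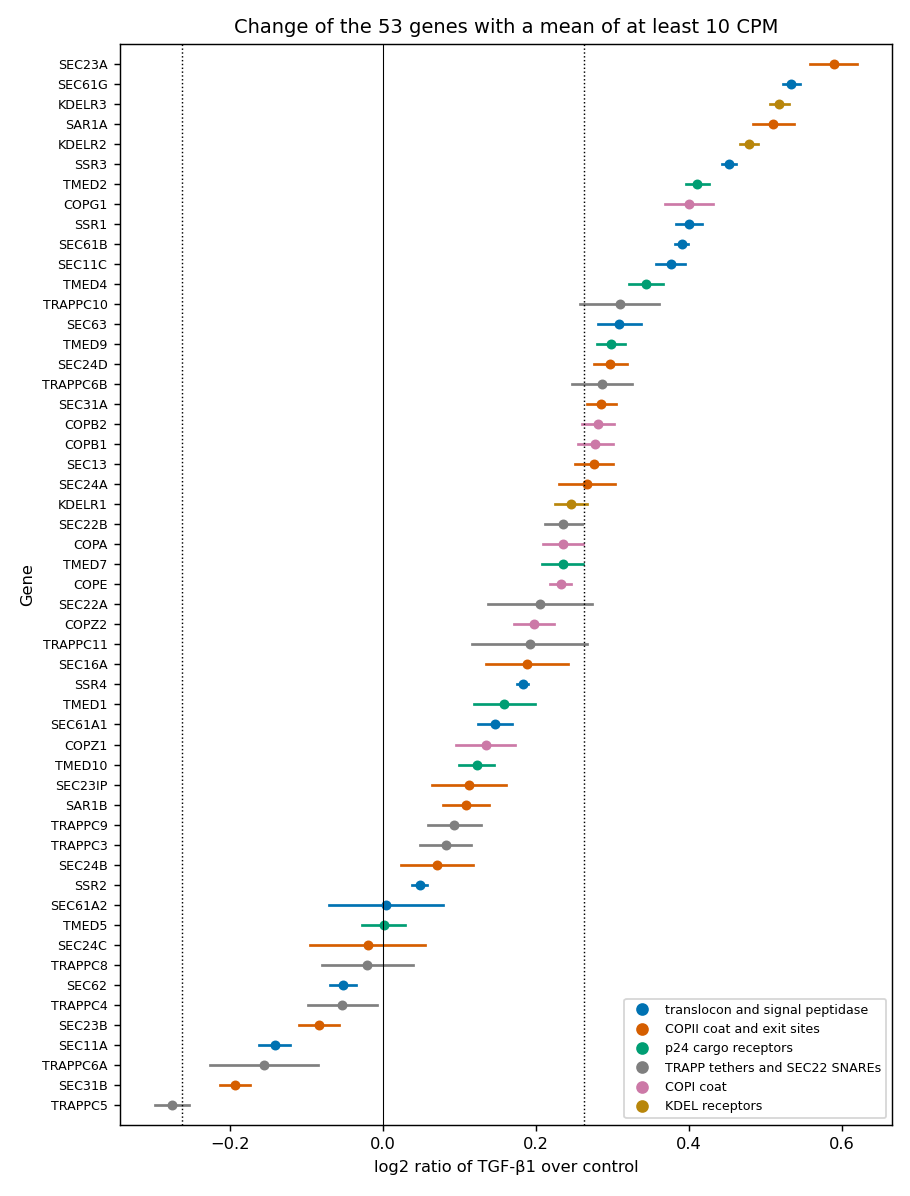
log2 ratio of TGF-β1 over control for the 53 genes that averaged 10 CPM or more, coloured by role, with exact 95% binomial intervals for counting error only and dotted lines at 1.2-fold. The points run from -0.28 for *TRAPPC5* to 0.59 for *SEC23A*, and 22 lie to the right of the upper line.

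The translocon and signal peptidase group held 12 genes, which all passed 10 CPM. Their summed level was 5463 CPM in control and 6630 CPM in TGF-β1 (log2 ratio 0.28, interval 0.28 to 0.28), and 6 of the 12 were more than 1.2-fold higher and none lower, beside 19.3% and 18.8% of all genes with at least 10 CPM. The gain was not shared by all parts of the machinery. The SEC61 channel had 1586 and 2112 CPM (log2 ratio 0.41) and the translocon-associated TRAP complex had 3174 and 3764 CPM (0.25), while the signal peptidase genes differed by 0.14 and *SEC62* with *SEC63* by 0.05.

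Within the channel, the small subunits changed most. *SEC61G* had 489 CPM in control and 709 CPM in TGF-β1, a log2 ratio of 0.53 (0.52 to 0.55). *SEC61B*, the other small subunit, had 935 and 1226 CPM (0.39). *SEC61A1*, which forms the pore, had 148 and 163 CPM (0.15), and its rarely captured paralogue *SEC61A2* had 13.4 CPM in both. The pore subunit thus differed by less than its small partners in these libraries. *SEC61A2* overlaps *NUDT5* in the RefSeq annotation, which had 123 and 67.7 CPM, and whether reads of one were counted for the other was not tested.

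The 4 TRAP subunits, which help many signal sequences into the channel, split in the same manner. *SSR3* had 842 and 1152 CPM (0.45, interval 0.44 to 0.46) and *SSR1* had 230 and 304 CPM (0.40). *SSR4*, with the most UMIs of all 63 genes, had 1342 and 1523 CPM (0.18), and *SSR2* had 760 and 785 CPM (0.05). The ratios of *SSR3* and *SSR2* therefore differed far beyond counting error although both proteins belong to 1 complex. The catalytic subunits of the signal peptidase went in opposite directions: *SEC11C* had 184 and 239 CPM (0.38, 0.36 to 0.40), and *SEC11A* had 182 and 165 CPM (-0.14, -0.16 to -0.12). *SEC63*, which works with the ER chaperone BiP in import, had 88.4 and 109 CPM (0.31). Its partner *SEC62* had 249 and 241 CPM (-0.05).

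The COPII coat and exit site genes numbered 14, of which 13 passed 10 CPM. Their sum was 1159 CPM in control and 1321 CPM in TGF-β1 (log2 ratio 0.19, 0.18 to 0.20), and 6 of the 13 (46.2%) were more than 1.2-fold higher and none lower, against the same 19.3% and 18.8% of all genes. The sum holds *SEC31B*, the most counted gene of the coat in control and the second in TGF-β1. *SEC31B* lies next to *NDUFB8*, a nuclear gene for a mitochondrial protein, in the RefSeq annotation, and no row of the count table carries that symbol. Whether reads of *NDUFB8* were counted for *SEC31B* was not tested. Without *SEC31B* the sum was 949 and 1137 CPM, a log2 ratio of 0.26 (0.25 to 0.27), which is a choice made after the values were seen.

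The inner coat genes, which start the bud and choose its cargo, gave the largest change among the genes with at least 10 CPM. *SEC23A*, known for its part in collagen export from skeletal cells, had 65.9 CPM in control and 99.1 CPM in TGF-β1, a log2 ratio of 0.59 (0.56 to 0.62). This placed it at the 93.9th percentile of all 7658 genes. Its paralogue *SEC23B*, known for blood cell precursors, had 113 and 107 CPM (-0.08, -0.11 to -0.06). *SAR1A*, a GTPase that starts coat assembly, had 88.6 and 126 CPM (0.51, 0.48 to 0.54), and *SAR1B*, known for the export of lipoprotein particles, had 80.1 and 86.3 CPM (0.11). In both pairs the A form had the larger ratio. The SEC24 proteins bind cargo. *SEC24D* had 144 and 177 CPM (0.30) and *SEC24A* had 50.5 and 60.8 CPM (0.27), while *SEC24B* had 33.0 and 34.7 CPM (0.07) and *SEC24C* had 13.4 and 13.2 CPM (-0.02).

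The outer coat forms the cage around the vesicle. *SEC31A* had 195 and 238 CPM (0.29, 0.27 to 0.30) and its partner *SEC13* had 108 and 131 CPM (0.28). *SEC31B* had 210 and 184 CPM (-0.19, -0.21 to -0.17). The exit site organisers *SEC16A* (24.5 and 27.9 CPM, 0.19) and *SEC23IP* (30.7 and 33.2 CPM, 0.11) differed little. *SEC16B* was a rare transcript with 299 control and 721 TGF-β1 UMIs, or 1.42 and 3.28 CPM, a 2.31-fold difference with a wide interval on the log2 scale (1.01 to 1.41), and it was higher in each of the 8 clusters described below.

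Families of paralogues therefore shifted in composition. *SEC23A* made up 36.8% of the UMIs of the SEC23 pair in control (36.3% to 37.3%) and 48.2% in TGF-β1 (47.7% to 48.6%). *SAR1A* went from 52.5% to 59.4% of its pair. *SEC31A* went from 48.1% to 56.4% of its pair, a share that rests on the doubtful *SEC31B* counts and for which there is no value without them. Outside COPII, *SEC11C* went from 50.3% to 59.2% of the catalytic signal peptidase UMIs, and *COPG1* from 88.1% to 93.3% of the γ-COP pair. The latter share rests on the low counts of *COPG2* (1944 and 1438 UMIs), which overlaps another gene in the annotation, and the part of shared reads was not tested. Other families kept nearly the same balance between the libraries: *SEC24D* held 59.8% and 62.0% of the SEC24 UMIs, *COPZ2* held 68.7% and 69.6% of the ζ-COP UMIs, *SEC61A1* held 91.7% and 92.4% of the pore subunit UMIs, and *KDELR3* held 38.8% and 40.3% of the KDEL receptor UMIs.

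**Figure D3:**
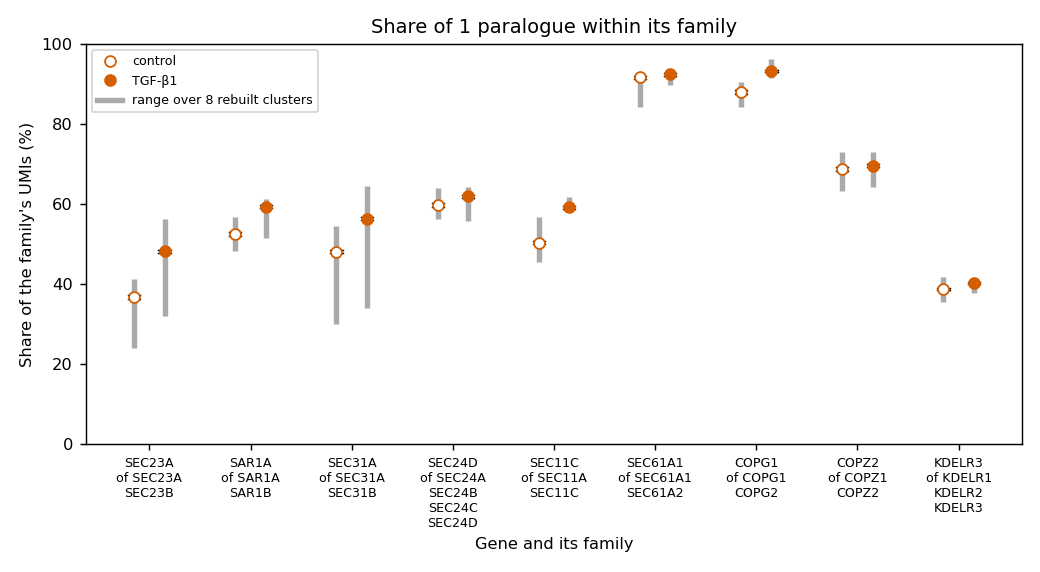
Share of the UMIs of 9 gene families that belongs to 1 named paralogue (%), in the control library (open) and the TGF-β1 library (filled), with exact 95% binomial intervals and grey bars for the range over the 8 rebuilt clusters. The largest shift is that of *SEC23A*, from 36.8% to 48.2%, while *COPZ2* and *SEC61A1* stay nearly level.

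The p24 proteins are small membrane proteins that cycle between ER and Golgi and take up cargo such as GPI-anchored proteins. Of the 9 TMED genes, 7 passed 10 CPM, and their group sum was 996 CPM in control and 1206 CPM in TGF-β1 (log2 ratio 0.28, 0.27 to 0.28). None of the 7 was lower, beside 48.6% of all genes, and 3 (42.9%) were more than 1.2-fold higher, beside 19.3%. *TMED2* led the group with 277 and 368 CPM (0.41, 0.40 to 0.43), followed by *TMED4* with 134 and 170 CPM (0.34) and *TMED9* with 208 and 256 CPM (0.30). *TMED10*, which assembles with *TMED2* in the same complexes, had 137 and 149 CPM (0.12), and *TMED5* had 93.9 and 94.0 CPM (0.00, -0.03 to 0.03). The sign of *TMED5* is thus not settled, and thinned cells gave -0.04. Thus partners within a complex again differed in size of change. *TMED8* had 2.87 and 2.84 CPM, and *TMED6* lay under 1 CPM with 50 and 51 UMIs.

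The TRAPP tethers and SEC22 SNAREs were the group with the smallest difference. Their 17 genes summed to 615 CPM in control and 625 CPM in TGF-β1, a log2 ratio of 0.02 (0.01 to 0.03), with 2 of the 11 genes over 10 CPM (18.2%) more than 1.2-fold higher, near the 19.3% of all genes, and 1 (9.09%) lower, beside 18.8%. The 14 TRAPP genes alone summed to 479 and 465 CPM (-0.04, -0.05 to -0.03), and the 3 SEC22 genes to 137 and 160 CPM (0.23). The sum leans on *TRAPPC5*, a subunit of the TRAPP core, which gave 24.5% of the UMIs of the group. *TRAPPC5* had 167 and 138 CPM (-0.28, -0.30 to -0.25), and without it the group had a log2 ratio of 0.12. Members of the core thus went both ways: *TRAPPC6B* had 44.7 and 54.5 CPM (0.29), while its paralogue *TRAPPC6A* had 16.1 and 14.5 CPM (-0.16). *TRAPPC10*, a subunit of the TRAPPII form, had 25.7 and 31.9 CPM (0.31).

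Several TRAPP genes were counted at low levels. *TRAPPC1*, another core subunit, had 11.8 CPM in control and 6.91 CPM in TGF-β1, which is -0.77 on the log2 scale (-0.87 to -0.68), and was lower in each of the 8 clusters. *TRAPPC13* had 5.21 and 4.19 CPM (-0.31). In the RefSeq annotation this gene overlaps *SGTB* (24.8 and 31.0 CPM) and *SHLD3* (3.33 and 3.12 CPM), and whether reads were shared was not tested. *TRAPPC12*, *TRAPPC14* and *SEC22C* lay between 2.70 and 9.25 CPM with ratios from -0.15 to 0.02. *TRAPPC3L* lay under 1 CPM with 72 and 144 UMIs. *SEC22B*, the SNARE of ER-derived vesicles, had 118 and 139 CPM (0.24, 0.21 to 0.26), within the range of the TRAPP genes.

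The COPI coat covers vesicles that return from the Golgi. Its 8 genes summed to 958 CPM in control and 1136 CPM in TGF-β1 (log2 ratio 0.25, 0.24 to 0.25), and the 7 that passed 10 CPM were all higher, beside 51.4% of all genes, with ratios from 0.13 to 0.40. The 3 that passed 1.2-fold (42.9%, beside 19.3%) were *COPG1*, *COPB2* and *COPB1*. *COPG1*, the γ subunit, had 68.6 and 90.5 CPM (0.40, 0.37 to 0.43). *COPB2* had 156 and 189 CPM (0.28), and *COPE*, the ε subunit with the most UMIs, had 340 and 399 CPM (0.23). *COPG2*, the other γ subunit, was the only COPI gene that was lower, with 9.24 and 6.54 CPM (-0.50, -0.60 to -0.40). The gene that *COPG2* overlaps in the RefSeq annotation, *MEST*, had 13.8 and 13.0 CPM. The δ subunit, *ARCN1*, does not carry a COP symbol and was named for its role after its values were seen. It had 102 and 105 CPM (0.05).

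The KDEL receptors bind chaperones such as BiP by their C-terminal retrieval signal and send them back in COPI vesicles. This was the group with the largest gain: 1056 CPM in control and 1454 CPM in TGF-β1, a log2 ratio of 0.46 (0.45 to 0.47). *KDELR3* had 410 and 587 CPM (0.52, 0.51 to 0.53), and *KDELR2* had 488 and 680 CPM (0.48, 0.47 to 0.49). *KDELR1* had 158 and 188 CPM (0.25, 0.23 to 0.27). All 3 receptors were higher, beside 51.4% of all genes with at least 10 CPM, and 2 (66.7%) were more than 1.2-fold higher, beside 19.3%. *KDELR1* differed by less than the others. *KDELR3* overlaps *DDX17* in the RefSeq annotation, which had 120 and 105 CPM, and whether reads were shared was not tested.

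To see whether the gain lay in some cells or in most, every kept cell was thinned to 20000 UMIs and the UMIs of each group were counted per cell. The translocon group had a median of 109 UMIs per cell in control (quartiles 97 and 122) and 132 in TGF-β1 (118 and 148), and 85.5% of the TGF-β1 cells lay above the control median. For the KDEL receptors the medians were 21 and 29, with 86.1% of the TGF-β1 cells above the control median. The COPII genes had medians of 22 and 26 (69.3%), the p24 genes 20 and 24 (72.6%) and the COPI genes 19 and 23 (72.5%). The TRAPP and SEC22 genes had a median of 12 in both, with 47.2% of TGF-β1 cells and 44.1% of control cells above 12. For all groups but this last one, both quartiles were higher in TGF-β1. For all 63 genes together the medians were 205 and 247 UMIs, with 92.3% of the TGF-β1 cells above the control median, and the lower quartile of TGF-β1 (227) lay above the upper quartile of control (221).

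**Figure D4:**
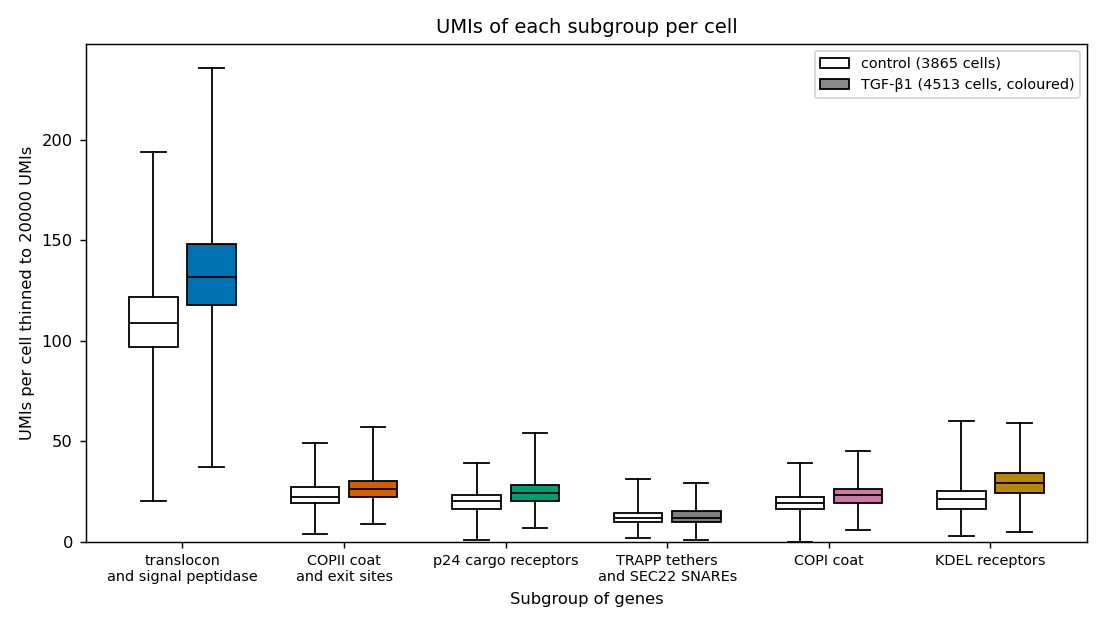
UMIs of each group per cell after thinning every cell to 20000 UMIs, with control in white (3865 cells) and TGF-β1 in colour (4513 cells); boxes span the quartiles with the median as a line, and whiskers reach the lowest and highest cell. The boxes are shifted upward in TGF-β1 for each group except the TRAPP and SEC22 genes, whose medians are both 12.

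Across cells of 1 library, the groups varied together only weakly. The largest rank correlation between groups was that of the translocon genes with the KDEL receptors, with Spearman coefficients of 0.34 over 3865 control cells and 0.41 over 4513 TGF-β1 cells. The COPII genes did not follow the translocon genes (-0.10 and -0.15). The cells of a library share its preparation and the counts per cell are low for most groups, so these coefficients are descriptions.

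The kept cells of both libraries were clustered again, which gave 8 clusters numbered 0 to 7, with 110 to 800 control cells and 59 to 1141 TGF-β1 cells each. The numbers are not those of the study. In cluster 6, each of the 7 cycling markers found exceeded its level in the remaining cells by more than 2-fold. The translocon, COPII, p24, COPI and KDEL receptor sums were each higher with TGF-β1 in all 8 clusters, including the 7 in which no cycling marker was raised to that extent. The log2 ratios ran from 0.22 to 0.34 for the translocon, from 0.14 to 0.26 for COPII, from 0.22 to 0.35 for the p24 genes and from 0.19 to 0.30 for COPI. The KDEL receptors had the largest ratio of the groups in each cluster, from 0.36 in cluster 2 to 0.52 in cluster 7. The TRAPP and SEC22 sum lay near 0 throughout, from -0.04 in cluster 7 to 0.06 in cluster 3.

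**Figure D5:**
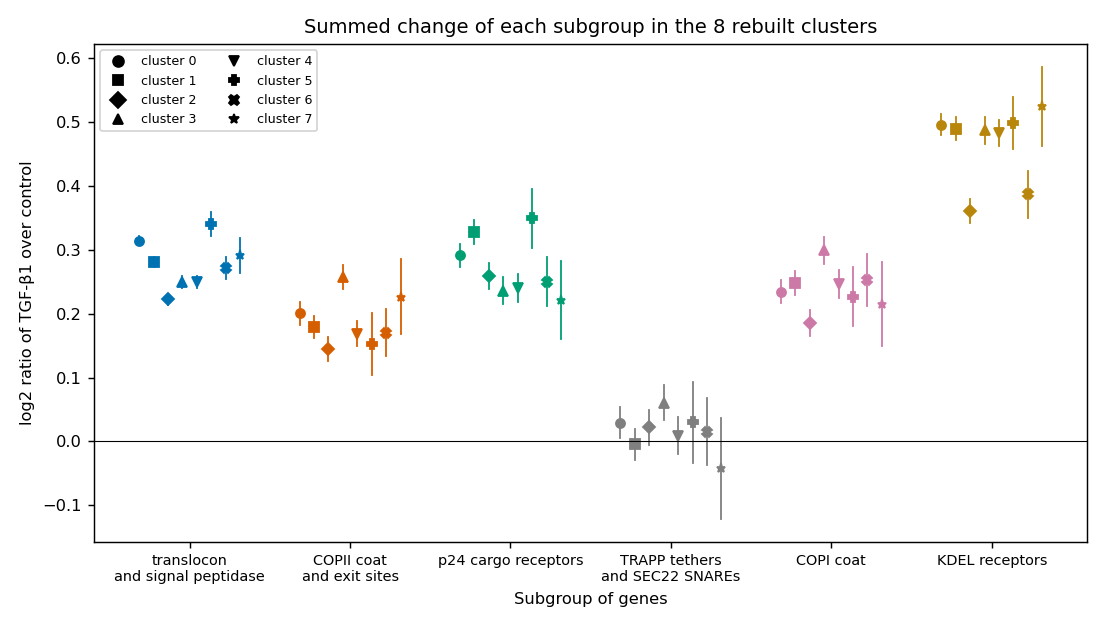
Change in the summed UMIs of each group (log2 ratio, TGF-β1 over control) within each of the 8 rebuilt clusters (marker shapes), with exact 95% binomial intervals for counting error only. The KDEL receptors lie between 0.36 and 0.52, the pooled TRAPP and SEC22 genes lie around 0, and the other groups lie between 0.14 and 0.35.

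Single genes mostly kept their direction across clusters. Of the 53 genes with at least 10 CPM, 33 were higher in each of the 8 clusters, beside 22.8% of all 7658 genes, and 4 were lower in each, beside 25.3%. The 4 were *SEC11A*, *SEC23B*, *SEC31B* and *TRAPPC5*. More than 1.2-fold higher in each of the clusters were 9 genes, beside 7.82% of all genes: *SEC61B*, *SEC61G*, *SSR1*, *SSR3*, *SAR1A*, *SEC23A*, *COPG1*, *KDELR2* and *KDELR3*. *SEC23A* ran from 0.42 in cluster 6 to 0.77 in cluster 3. Of the 22 genes past 1.2-fold over all cells, *SEC24D*, *COPB1* and *TRAPPC10* were not higher in every cluster, and each had its exception in cluster 5.

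Cluster 5 was at the end of the range of several groups. In both libraries it had the highest translocon level (6143 and 7778 CPM), KDEL receptor level (1209 and 1708 CPM) and COPI level (1035 and 1211 CPM). It had the lowest COPII level (957 and 1064 CPM) and the lowest TRAPP and SEC22 level (590 and 602 CPM). It held 156 control and 191 TGF-β1 cells. *SEC31A* had 114 and 121 CPM in cluster 5 and 151 to 233 CPM in the control cells of the other clusters, and *SEC23A* had 35.0 and 52.2 CPM. Cluster 5 also had the highest share of ribosomal protein UMIs (19.3% and 16.8%) and the lowest share of mitochondrial UMIs (1.18% and 0.99%), and its cells had the lowest median depth (41980.5 and 33731 UMIs). The part of these differences in its levels was not tested.

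Other genes of the route, with the regulators *CREB3L1*, *CREB3L2* and *XBP1*, gave a smaller share of higher genes. They came from a list of 58 outside the symbol rule, of which 52 were found. Not found were *SPCS1*, *MIA2*, *CTAGE5*, *ARF3*, *GOLGA2* and *GORASP1*. Of the 51 with at least 10 CPM, 13 (25.5%) were more than 1.2-fold higher, not far from the 19.3% of all genes, and 3 (5.88%) were lower, beside 18.8% of all genes. Their median log2 ratio was 0.16. *CREB3L2*, a membrane-bound transcription factor known for secretory genes in cartilage, had 96.1 CPM in control and 220 CPM in TGF-β1 (1.19, 1.17 to 1.22). *LMAN1*, a lectin that carries glycoproteins out of the ER, had 359 and 576 CPM (0.68), and *YIF1A*, a membrane protein of early transport, had 64.8 and 95.7 CPM (0.56). Only 3 genes were lower by this size. *ARF5*, a GTPase of the family that recruits COPI, had 66.8 and 41.5 CPM (-0.69), and *PREB*, the exchange factor that activates SAR1, had 25.1 and 19.2 CPM (-0.38). *CREB3L1*, a relative of *CREB3L2*, had 72.4 and 54.0 CPM (-0.42). The remaining regulator, *XBP1*, had 282 and 247 CPM (-0.19). The exchange factor and the GTPase it activates, *SAR1A*, thus had ratios of opposite sign.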

How the data were processed

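The authors deposited UMI counts per gene and cell barcode for each library, made with Cell Ranger (7.1.0 in the methods, 8.0.1 in the file header) against EquCab3.0 with the Ensembl annotation. The counts were whole numbers and unfiltered beyond cell calling. The cell filters of the study were applied. Its doublet removal by Souporcell rests on the reads and was not repeated, so doublets remain, and removing cells above the 98th percentile of UMIs was an alternative. The libraries shared 6 barcodes, 2 among kept cells.

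Sums, ratios without a pseudocount and exact intervals were computed with pandas 2.3.3 and scipy 1.17.1 (Python 3.11.15) and tested on simulated data. No ratio was given for genes with 3 or fewer UMIs. Clusters were rebuilt in Seurat 5.3.0 (R 4.3.3; 2000 variable genes, 30 dimensions, canonical correlation integration, resolution 0.5), without matching to the clusters of the study. The edgeR comparison within clusters used by the study was not run.

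The members and lists were chosen with earlier results of these data known. By rule, the text names per group the most counted gene, the 3 largest changes at 10 CPM or more, genes past 1.5-fold, those under 1 CPM, the paralogue families and, of the other pathway genes, the 3 largest changes in each direction. Further genes were named for their role after their values were seen. All 63 symbols were matched to the RefSeq gene table of another assembly, used only for neighbours: 16 overlapped another coding gene there. Besides *SEC61A2*, *COPG2*, *KDELR3* and *TRAPPC13*, these were *SEC11A*, *SSR4*, *SEC23B*, *SEC31A*, *TMED1*, *TMED6*, *TMED8*, *SEC22C*, *TRAPPC1*, *TRAPPC3L*, *COPA* and *COPB2*. Whether reads were shared was not tested for any of the 16.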

Additional observations from a re-analysis of the deposited data

How the results depend on the processing

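Every group sum kept its direction under each alternative run. The translocon log2 ratio was 0.28 with every deposited barcode and 0.27 without cells above the 98th percentile of UMIs, with a median-of-ratios size factor and with equal cluster shares in both libraries. The size factor, under which all ratios fall by 0.01, gave 0.18 for COPII and 0.45 for the KDEL receptors. The mean of per-cell CPM gave 0.29 for the p24 genes, 0.25 for COPI and 0.48 for the KDEL receptors, and thinned cells gave 0.28, 0.26 and 0.48. Leaving out *SEC31B*, chosen after seeing the data, gave 0.26 for COPII. With a minimum of 1 CPM, 4 genes were more than 1.2-fold lower (*TRAPPC5*, *TRAPPC1*, *TRAPPC13* and *COPG2*), and *SEC16B* joined those more than 1.2-fold higher. The share of all genes at that minimum was not counted, so these counts have no background beside them. At 10 CPM, a 1.5-fold limit left 1 higher and 0 lower, beside 6.19% and 6.48% of all genes. The cause was not tested for the other shifts. With a UMI minimum of 10000 or a mitochondrial limit of 6%, each group sum stayed within its counting interval. Group ratios in clusters had the sign of the library ratio in 46 of 48 cases (95.8%) and in 34 of 36 (94.4%) at resolution 0.3. Without integration, 1 of 7 clusters held at least 50 cells of each library. The planned search for promoter motifs was not run here. With 1 library per treatment, counting intervals say nothing of how repeated cultures or single mares vary, and depth limits the 10 genes under 10 CPM.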
